A study of Gallus gallus with 4 samples.

Results

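Some H3K9me3 domains of chicken germ cells lay over stretches where embryonic stem cells carried several separate domains. They are called spanning cPGC domains here, and they were selected by the number of overlaps alone: a domain of cultured primordial germ cells (cPGCs) narrower than 50 kb that overlapped 3 or more domains of embryonic stem cells (ESCs) by at least 1 bp on the same chromosome. There were 548 of them among 22359 cPGC domains under 50 kb, which is 2.45% (95% Wilson interval 2.26 to 2.66%), and among 47621 domains of both cell types. The compared groups were chicken PGCs kept in culture and ESCs, which stand for the germ line and for the early embryo in vitro, and no treatment or genetic change was given for either. Each cell type had 1 library immunoprecipitated with an H3K9me3 antibody and 1 input library, so the spread between cultures is unknown and no p-value is given. The deposited values were the positions of the domains on the galGal5 assembly, with no count or signal, so the read depth behind each list is unknown and the positions alone do not allow a check of the cell types against marker genes.

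Trimethylation of lysine 9 on histone H3 (H3K9me3) is a mark of heterochromatin, the compact and mostly silent form of chromatin. It is bound by HP1 proteins, which recruit the enzymes that add the mark, and in this way it can spread from a marked nucleosome to its neighbours and form continuous domains. Such domains lie over repeated elements and over genes that are off in the cell type, and they are broken up where the mark is missing or too weak to be called.

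Because the overlaps chose the domains, the number of ESC domains inside, their gaps and the share they filled are a description. Of the 548 spanning domains, 441 (80.5%) overlapped 3 ESC domains, 94 (17.2%) overlapped 4 and 13 (2.37%) overlapped 5. Of the other cPGC domains under 50 kb, 2051 overlapped 2 ESC domains, 9849 overlapped 1 and 9911 overlapped none. Spanning domains were among the wider ones of their list. Their width ranged between 6300 and 49800 bp with a median of 34500 bp (95% interval 33000 to 35700 bp), and 494 (90.1%) were at least 20 kb wide, against 16.5% of all cPGC domains under 50 kb. The median width was 32100 bp over 3 ESC domains, 40350 bp over 4 and 44400 bp over 5. A wider domain meets more ESC domains by position alone, so these differences in width follow in part from the rule. In the shifted lists described below, a mean of 371 domains overlapped 3 or more ESC domains. Of these, 104 were of 20 to 30 kb, 114 of 30 to 40 kb and 98.2 of 40 to 50 kb. The share at 20 kb or more thus follows mostly from the rule. Counts within classes of width are set beside shifted lists below. The upper width falls within a continuous range, since 84 of 229 cPGC domains of 45 to 50 kb and 95 of 194 of 50 to 55 kb overlapped 3 or more ESC domains.

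The spanning domain named for the median width among those with 3 ESC domains was fuller than most. It lay at chr1:4522501-4554600 and was 32100 bp wide. Inside it were ESC domains of 10800, 8700 and 6600 bp, separated by gaps of 1800 and 2100 bp. The ESC domains filled 81.3% of it, against a median of 61.7% over 3 ESC domains. The first began 2100 bp after its start and the last ended on its last base. Other domains over 3 ESC domains had the same width. Among them were chr1:164640301-164672400, chr1:164718001-164750100 and chr3:97044601-97076700, filled at 78.5, 71.0 and 85.0%.

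The 5 spanning domains that led the order by number of ESC domains and then by width each held 5. At chr1:152449501-152498400, 48900 bp wide, ESC domains of 8400, 1800, 11100, 14700 and 6300 bp filled 76.1%, with gaps of 1800, 2400, 5700 and 1800 bp. The domain at chr1:194577901-194625900 (48000 bp) was filled at 76.3% and had gaps of 1800 to 3600 bp. The one at chr5:57447901-57494400 (46500 bp) was filled at 81.9% and had gaps of 1800 to 2100 bp. In these 3 regions the ESC domains filled most of the cPGC domain, with gaps of 1800 to 5700 bp between them. The remaining pair was emptier. At chr1:163837201-163884900 (47700 bp) a gap of 12300 bp and an uncovered end of 8100 bp left 45.3% filled, and the first ESC domain entered by only 300 bp. At chr2:131675701-131723400 (47700 bp), 42.1% was filled, with 16500 bp before the first ESC domain and 11100 bp in gaps.

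**Figure D1:**
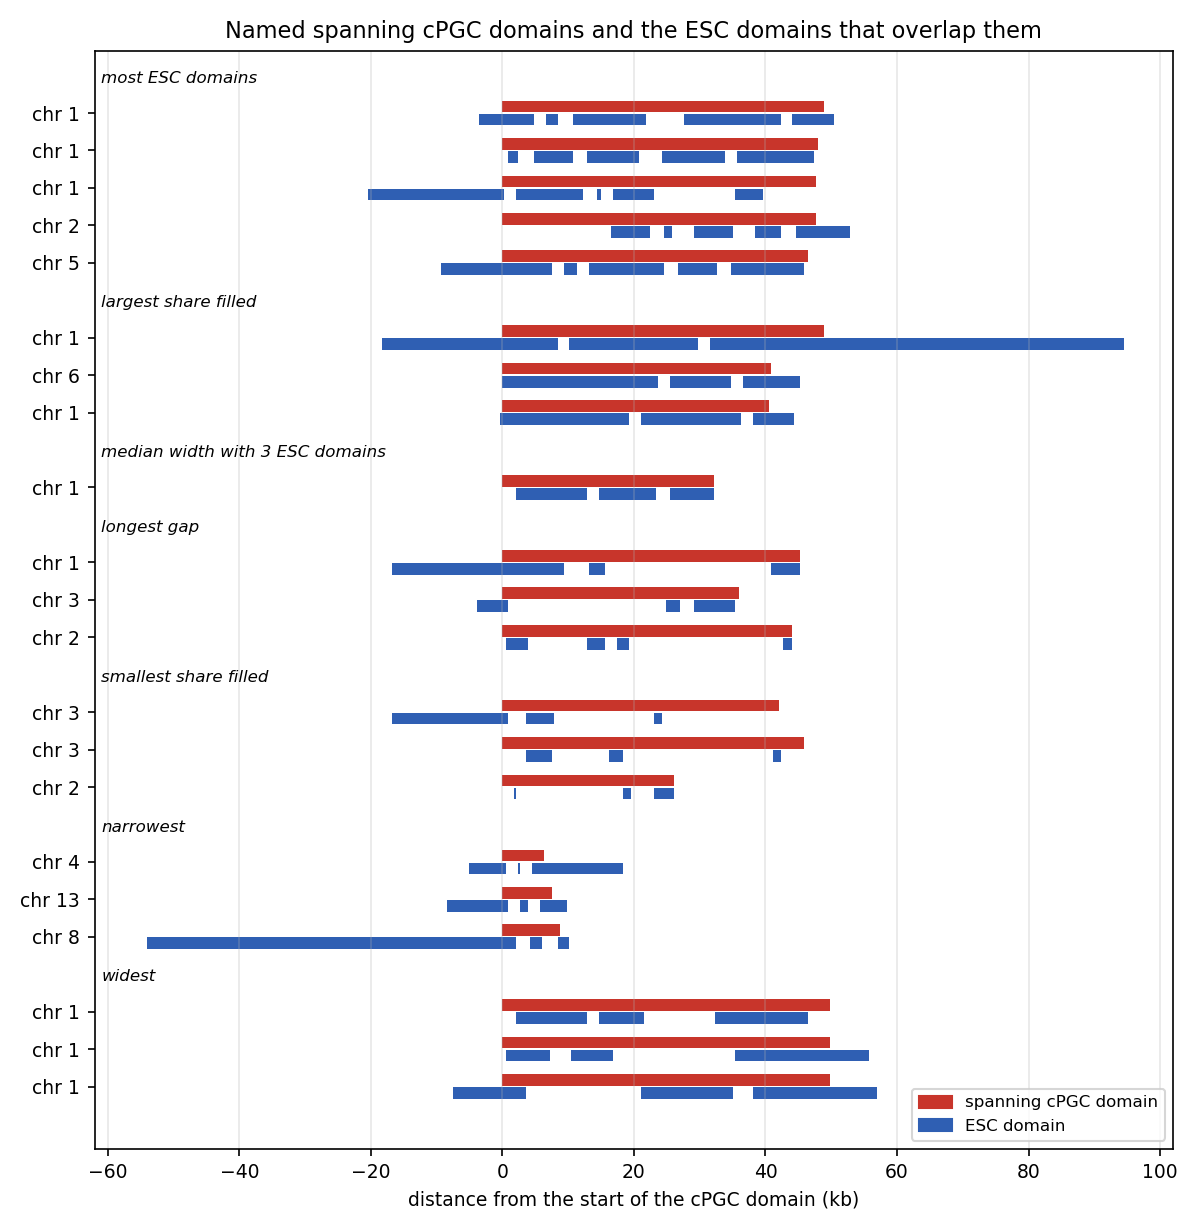
Spanning cPGC domains named by a fixed rule (red) with the ESC domains that overlap them (blue), as distance in kb from the start of the cPGC domain, grouped by why each was named. Domains of the largest share filled (91.1 to 92.6%) show ESC domains separated by narrow breaks, and those of the smallest share filled (15 to 17.2%) show long stretches of the cPGC domain without an ESC domain.

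Spanning domains held 18429300 bp in all, which is 7.07% of the bases of cPGC domains under 50 kb. Of these bases 11242800 (61.0%) lay in ESC domains, 5179800 (28.1%) lay in gaps between ESC domains and 2006700 (10.9%) lay outside the outermost ESC domains. The gaps thus held more of the bases without an ESC domain than the flanks did. The rule requires gaps between ESC domains in every spanning domain but no such flank, so this order follows in part from the rule. The share filled by ESC domains ranged between 15 and 92.6% with a median of 61.9% (95% interval 60 to 64.5%), and 403 of 548 domains (73.5%) were filled at 50% or more. The median was 61.7% in domains over 3 ESC domains, 61.5% over 4 and 75% over 5, the last with 13 domains and an interval of 45.3 to 76.9%.

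At the same width, a larger number of ESC domains went with a larger share filled in the wide classes. More ESC domains in a given width tend to bring more ESC bases, so this order is a description. Among cPGC domains of 40 to 50 kb, the median share filled was 59.8% over 3 or more ESC domains (172 domains), against 47.7% over 2 (164 domains) and 29.5% over 1 (133 domains). Among those of 30 to 40 kb it was 63.9% over 3 or more, against 51.7% over 2 and 30.2% over 1. Among those of 10 to 20 kb the order was not kept, with 63.0% over 3 or more, 67.3% over 2 and 50% over 1.

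**Figure D2:**
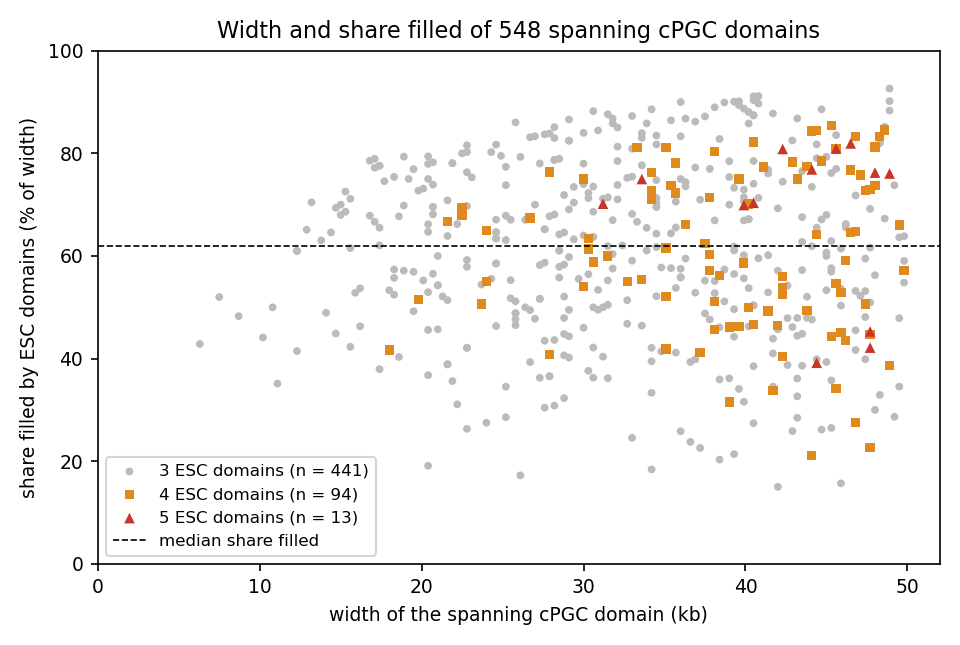
Width in kb and share filled by ESC domains in percent of the width for each of the 548 spanning cPGC domains, coloured by the number of ESC domains, with the median share (61.9%) as a dashed line. Shares scatter widely at every width, and 11 of the 13 domains with 5 ESC domains are wider than 35 kb.

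The extremes of the share filled were unlike each other in gap and in ESC width. The fullest domain, chr1:159849001-159897900 (48900 bp, 92.6%), lay over ESC domains of 26700, 19500 and 63000 bp that reached past its start by 18300 bp and past its end by 45600 bp. The next, chr6:33788101-33828900 (40800 bp, 91.2%) and chr1:81946501-81987000 (40500 bp, 91.1%), also held gaps of 1800 bp only. In these regions the ESC list was broken by the shortest gap that either list contains. The emptiest domain, chr3:18148201-18190200 (42000 bp, 15%), lay over ESC domains of 17700, 4200 and 1200 bp, the first of which entered by 900 bp. At chr3:24699901-24745800 (45900 bp, 15.7%) the gaps were 8700 and 22800 bp. At chr2:79363501-79389600 (26100 bp, 17.2%) the ESC domains were 300, 1200 and 3000 bp wide. In each of these 3 domains the cPGC domain ran on over a gap or end of more than 15 kb without an ESC domain. Only 12 of 548 (2.19%) were filled below 25%.

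The gaps inside spanning domains were mostly short. The 1216 gaps between neighbouring ESC domains inside had a median of 2700 bp (95% interval 2400 to 2700 bp), an upper quartile of 4800 bp and a maximum of 25200 bp, against a median of 13500 bp over all 24461 ESC gaps. A gap has to be shorter than the cPGC domain around it. Under the same rule, the shifted lists described below had median inside gaps of 2700 to 3000 bp. Most of this difference thus follows from the rule. Of the inside gaps 736 (60.5%) were 3000 bp or less, against 21.8% of all ESC gaps, and 279 (22.9%) were at 1800 bp, against 7.50%. The rule shapes these shares too, and they were not set beside the shifts. The value of 1800 bp is the smallest gap in the lists, which the window of 300 bp and the gap setting of 1500 bp of the authors' island caller allow. In 184 spanning domains (33.6%) every gap was 3000 bp or less, in 90 (16.4%) every gap was longer, and in 100 (18.2%) at least 1 gap was over 10000 bp.

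The longest inside gaps exceeded the median of all ESC gaps. The gap of 25200 bp lay in chr1:57116101-57161400 (45300 bp, 35.8% filled), where it separated ESC domains of 2400 and 4500 bp. At chr3:51204301-51240300 (36000 bp, 25.8%) the gap was 24000 bp. At chr2:69049801-69093900 (44100 bp), 4 ESC domains of 1500 to 3300 bp filled 21.1% and left a gap of 23400 bp. These are stretches in which only the cPGC list held a domain over many kb.

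The narrow end of the list had a different layout. The narrowest spanning domain, chr4:77385901-77392200, was 6300 bp wide, and ESC domains of 5700, 300 and 13800 bp touched it. Those on its sides reached past it by 5100 and 12000 bp, so the cPGC domain covered a 300 bp ESC domain and joined the ends of its neighbours. The domains at chr13:8972101-8979600 (7500 bp, 52% filled) and chr8:54001-62700 (8700 bp, 48.3%) were likewise passed by ESC domains at both ends. The largest width was 49800 bp, and the 3 domains named for it lay at chr1:37337401-37387200, chr1:127620901-127670700 and chr1:189276601-189326400. They were filled at 63.9, 54.8 and 59.0% by 3 ESC domains, with gaps of 10800, 18600 and 17400 bp as their longest. The domain at chr2:115118401-115168200 had the same width. It was filled at 57.2% by 4 ESC domains, with a longest gap of 3300 bp.

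Spanning cPGC domains did not simply contain the ESC domains below them. The 548 domains were touched by 1753 different ESC domains (7.16% of the ESC list) in 1764 overlaps, and 1204 of the overlaps (68.3%) were of an ESC domain lying wholly inside. These ESC domains had a median width of 6900 bp, against 6300 bp for all ESC domains. Of the 1096 ends of spanning domains, 560 (51.1%) lay inside an ESC domain that reached past the end, by a median of 5100 bp and up to 67200 bp. Another 70 ends (6.39%) fell on the same base as the end of the outer ESC domain, and 466 (42.5%) lay beyond it, by a median of 2400 bp. Thus ESC domains passed both ends in 155 spanning domains, 1 end in 250 and neither in 143. In 304 of the 560 passed ends (54.3%) the ESC domain reached into the next cPGC domain, so that each cell type joined a stretch that the other had split.

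The distance to the next cPGC domain and the domains in the flanks were not part of the rule. The next cPGC domain lay a median of 3000 bp away. It was 3000 bp away or less on 500 of 988 sides (50.6%, 47.5 to 53.7%) of spanning domains at least 20 kb wide, against 2801 of 6401 sides (43.8%, 42.5 to 45%) of the other cPGC domains of 20 to 50 kb. Spanning domains are wider than the others within this range, and sides of neighbouring domains are not independent. Within width classes the median distance was 3000 bp at 20 to 30 kb, against 4200 bp over 2 ESC domains, 4500 bp over 1 and 3900 bp over none. At 30 to 40 kb it was 3300 bp, against 3300, 4200 and 4050 bp, and at 40 to 50 kb it was 3000 bp, against 4050, 3300 and 3300 bp. At matched width the distance was thus equal to or below that of the others, by amounts that varied between the classes. In the 50 kb on each side of spanning domains of 30 to 40 kb, ESC domains covered 39.8% of the bases on average, against 33.3% beside cPGC domains of the same width over 2 ESC domains, 27.5% over 1 and 16.1% over none. The same flanks were covered by cPGC domains at 60.8%, against 58.3, 55.7 and 57.4%. At 40 to 50 kb, ESC domains covered 38.0% of the flanks, against 35.2, 31.3 and 18.7%. There cPGC domains covered 60.4%, against 57.6, 61.1 and 57.0%. At 30 to 40 kb the cPGC coverage of the flanks differed by less than the ESC coverage, and at 40 to 50 kb it was not the highest. In both classes the flanks of spanning domains were richer in ESC domains than those of the others. An ESC domain that passes an end also counts in the flank, so this is not free of the rule.

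Wider cPGC domains and denser ESC domains give more overlaps by position alone, and the count was therefore set beside shifted lists. The ESC domains of each chromosome were moved together along it, with the end joined to the start, by 99 fixed steps of a hundredth of its length. This keeps the same cPGC domains and the widths and gaps of the ESC domains, except where the end meets the start. An ESC domain that crosses that point is cut there. In the deposited positions 548 cPGC domains under 50 kb overlapped 3 or more ESC domains, against a mean of 371 after the shifts (lowest 322, highest 434), a ratio of 1.48 (95% interval from counting 1.36 to 1.60). For 1 or more ESC domains the count was 12448, against 9659 after the shifts (ratio 1.29), and for 2 or more it was 2599 against 2029 (ratio 1.28). For 4 or more it was 107 against 62.7, and for 5 or more it was 13 against 8.31 (lowest 2, highest 15). The count over 3 or more ESC domains lay above all 99 shifts, and the count over 5 lay within their range. Over local shifts of 100 kb to 1 Mb in both directions, added after seeing the data to keep the regional density of domains, the mean was 422 (lowest 375, highest 489) and the ratio 1.30. The ratio turned round when domains 3000 bp or less apart were first joined in both lists: 81 spanning domains remained, against a mean of 99.1 after the shifts (lowest 71, highest 120), a ratio of 0.818 and within the range of the shifts. Joining in the ESC list alone gave 111 against 98.0 (ratio 1.13), and joining in the cPGC list alone gave 456 and a ratio of 1.36, both added after seeing the data. With ESC domains alone joined, the count also lay within the range of the shifts (lowest 78, highest 126). Joining changes the number and widths of the domains as well, so the part of short ESC breaks in the excess was not tested.

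The difference from the shifts along whole chromosomes grew with the width of the cPGC domain. Among the 510 cPGC domains of 40 to 50 kb, 172 (33.7%) overlapped 3 or more ESC domains, against a mean of 98.2 after the shifts (lowest 69, highest 127), a ratio of 1.75. Among those of 30 to 40 kb there were 182, against 114 (lowest 89, highest 141), a ratio of 1.60. Among those of 20 to 30 kb there were 140, against 104 (lowest 80, highest 131). Below 20 kb the counts lay within the range of the shifts, with 51 against 53.2 (lowest 37, highest 72) at 10 to 20 kb and 3 against 2.16 (lowest 0, highest 6) below 10 kb. Spanning domains in the deposited positions were also fuller, with a median share of 61.9%, against medians of 50.4 to 58.7% in the shifted lists. The median inside gap of 2700 bp lay at the lower edge of their range of 2700 to 3000 bp. Shifts along whole chromosomes do not keep the local density of domains. Local shifts were not run by width class or for the share filled, so the part of local density in these differences was not tested.

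**Figure D3:**
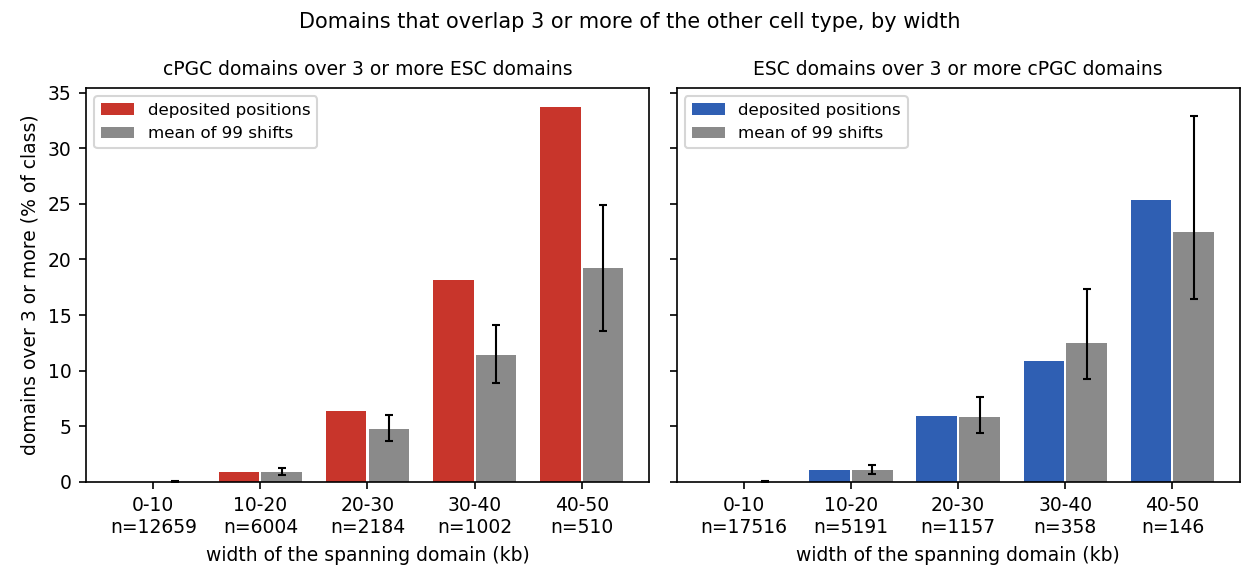
Share of cPGC domains that overlapped 3 or more ESC domains (left, red) and of ESC domains that overlapped 3 or more cPGC domains (right, blue), in percent of the domains of each width class, beside the mean of 99 shifts (grey, with whiskers to the lowest and highest shift). Red bars stand above the whiskers at 20 kb and more, up to 33.7% at 40 to 50 kb, and blue bars lie within the whiskers in every class of 10 kb or more. The shifts ran along whole chromosomes and do not keep the local density of domains.

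The same rule with the cell types exchanged found fewer domains. Of 24368 ESC domains under 50 kb, 204 (0.837%, 95% Wilson interval 0.730 to 0.960%) overlapped 3 or more cPGC domains: 177 overlapped 3, 23 overlapped 4, 3 overlapped 5 and 1 overlapped 6. The mean after the shifts was 203 (lowest 169, highest 245), a ratio of 1.00. This ratio depended on the rule. When at least 50% of a cPGC domain had to lie inside, 80 ESC domains stood against 49.1 (lowest 32, highest 65), a ratio of 1.63, beside 2.03 for cPGC domains under the same rule. Over 2 or more cPGC domains there were 1920 against 1742 (lowest 1638, highest 1893), a ratio of 1.10. Both of these counts of ESC domains lay above all shifts. With domains 3000 bp or less apart joined in both lists the ratio was 0.730 (35 against 47.9, lowest 24, highest 67), and with cPGC domains alone joined, added after seeing the data, it was 0.539 (16 against 29.7, lowest 19, highest 45). Outside chromosomes 1 to 8 it was 1.34 (28 against 20.9, lowest 12, highest 39). The share of domains called by the rule was thus 2.45% in cPGCs and 0.837% in ESCs, and wide domains are more frequent in the cPGC list, so the shares alone do not compare the cell types. The ESC spanning domains had a median width of 24900 bp and a median share filled by cPGC domains of 71.6%, with a median inside gap of 2100 bp.

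Seen from the gaps, cPGC domains bridged short ESC gaps more often than the shifts gave. A gap was called bridged when a domain of the other cell type covered all of its bases, whatever its width. Of ESC gaps of 1800 to below 6000 bp, 3721 of 7848 (47.4%) were bridged by a cPGC domain, against 29.9% after the shifts (27.8 to 35.1%), and 973 of the bridged gaps lay in spanning domains. For the shortest gaps, 1800 to below 3000 bp, 54.4% were bridged, against 31.6% (28.4 to 36.8%). The excess shrank with gap length, with 36.5% against 27.3% at 3 to 6 kb, 25.1% against 20.8% at 6 to 10 kb and 14.1% against 13.0% at 10 to 20 kb, the last within the range of the shifts (11.4 to 14.2%). At 20 to 50 kb it turned round, with 3.54% bridged against 5.25% (4.65 to 6.0%). ESC domains bridged 19.9% of the cPGC gaps of 1800 to below 6000 bp (2169 of 10924), against 17.3% after the shifts (16.1 to 19.2%). They were above the shifts at 1800 to below 3000 bp (23.9% against 18.9%) and below them at 3 to 6 kb (11.6% against 14.2%). These shifts ran along whole chromosomes and do not keep the local density of domains. Local shifts were not run for gaps, so the part of local density in these differences was not tested. With 1 immunoprecipitated library per cell type, a difference between the libraries and a difference between the cell types cannot be told apart in any of these counts.

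**Figure D4:**
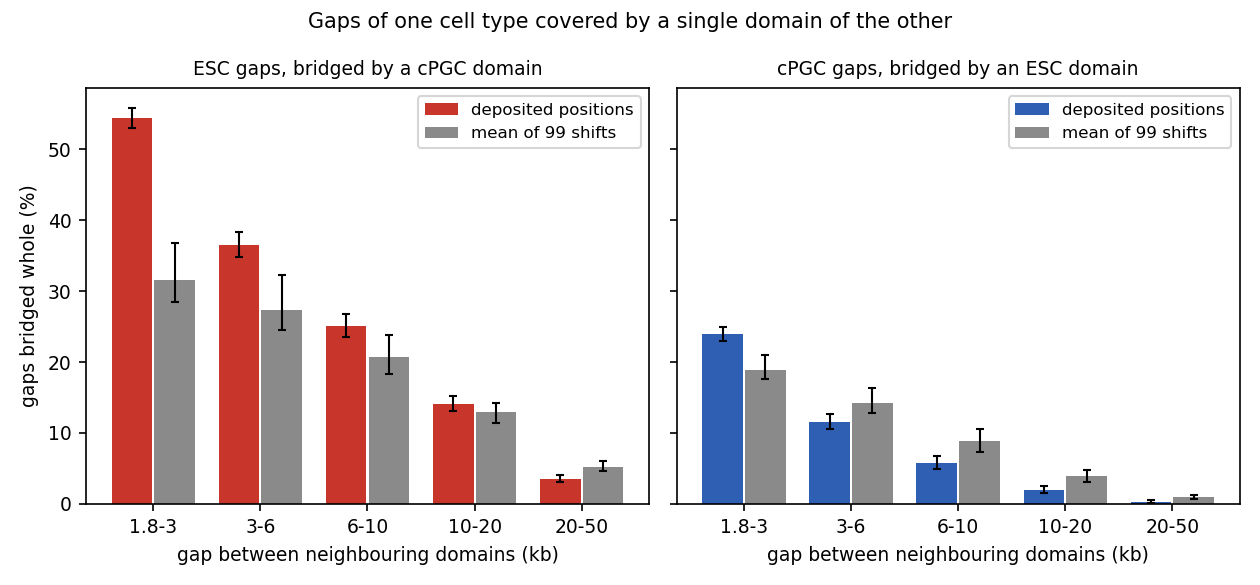
Share of ESC gaps bridged whole by a cPGC domain (left, red) and of cPGC gaps bridged whole by an ESC domain (right, blue), in percent of the gaps of each length class in kb, with 95% Wilson intervals, beside the mean of 99 shifts (grey, with whiskers to the lowest and highest shift). For gaps of 1.8 to 3 kb, cPGC domains bridged 54.4% and the shifts 31.6%, and for gaps of 20 to 50 kb they bridged 3.54% and the shifts 5.25%.

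Spanning domains were unevenly placed. Chromosome 1 held 191 (34.9%), chromosome 2 held 109 and chromosome 3 held 59, so 359 of 548 (65.5%) lay on 49.0% of the bases considered. They took 2.58% of the cPGC domains under 50 kb of these chromosomes, against 2.24% on the other 27. This is a small difference beside that in number. The 27 were not alike, with 1.85% on chromosomes 4 to 8 (1.51 to 2.26%) and 2.81% on the remaining 22 (2.31 to 3.42%). Chromosomes 1 to 3 were set apart with the values known. Set beside the shifts, the 359 spanning domains of chromosomes 1 to 3 stood against a mean of 280 (lowest 235, highest 327), a ratio of 1.28. The 189 on the others stood against 91.3 (lowest 63, highest 136), a ratio of 2.07. The larger number thus went with the smaller ratio, and both counts lay above their shifts. Shifts along a whole chromosome keep how much of it the domains cover, but not the local density of domains along it. Local shifts were not run by chromosome group, so the part of local density in these ratios was not tested.

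Some small chromosomes had a large share for their size, and others had a small one. On chromosome 18, 11 of 166 cPGC domains under 50 kb (6.63%, 3.74 to 11.5%) were spanning domains, and on chromosome 23, 6 of 83 (7.23%, 3.36 to 14.9%). This compares with 3.13% on chromosome 1 (2.72 to 3.60%) and 1.23% on chromosome 6 (8 domains, 0.623 to 2.40%). Chromosome 14 had 2 of 234 (0.855%, 0.235 to 3.06%) and chromosome 11 had 4 of 308 (1.30%, 0.506 to 3.29%). Per Mb, chromosome 23 held 1.04, chromosome 18 held 0.997 and chromosome 1 held 0.973. Chromosomes 16, 25 and 30 held 0, of 18, 45 and 0 cPGC domains under 50 kb. The counts of the small chromosomes are low and their intervals wide.

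Along the chromosomes, neighbouring spanning domains lay a median of 717300 bp apart (1800 to 20214900 bp over 521 pairs), and 93 pairs (17.9%) lay within 100 kb. In 24 pairs the 2 domains were next to each other in the cPGC list. Windows of 1 Mb held at least 1 spanning domain in 365 of 946 cases (38.6%) and 3 or more in 43 (4.55%). The densest window, chr1:164000001-165000000, held 8 among its 46 cPGC domains under 50 kb, and cPGC domains covered 80.3% of it and ESC domains 57.4%. Of the 8, the first 4 lay between 164052301 and 164213400 with widths of 37800, 13800, 38400 and 20400 bp. Windows that start at 18000001, 127000001 and 149000001 of chromosome 1 held 5 each. The region near 164 Mb is thus rich in domains of both cell types. It was picked for its spanning domains, so ESC breaks under cPGC domains there follow from the choice. The opposite layout also occurred in it, with an ESC domain at chr1:164539201-164556300 over 3 cPGC domains.

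Genes were looked up among 1999 loci of the galGal5 annotation that accompanies the study, each extended by 500 bp upstream of the transcription start. The other genes of that annotation were not analysed here. Only 28 of the loci lay on chromosomes 1 to 3, which held 359 of the spanning domains. Spanning domains overlapped 21 loci and contained 3 wholly, and 17 of the 548 spanning domains had such a locus. In comparison 543 loci (27.2%) overlapped any cPGC domain under 50 kb. Coverage of the 21 loci was higher in cPGC domains for 15, higher in ESC domains for 4 and equal for 2, with a median of 89.1% in cPGCs and 68.7% in ESCs. The loci were found through a cPGC domain that also covers gaps between ESC domains, so the direction is a description and no sign of a difference.

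Of the 3 loci that lay wholly in a spanning domain, *TWIST2* was the longest. It encodes a basic helix-loop-helix transcription factor of mesenchymal cells, and cPGC domains covered 100% of its locus (chr7:6126972-6157943) and ESC domains 66.1%. The spanning domain around it was 45600 bp wide and lay over 3 ESC domains that reached past it by 9000 and 35100 bp, and the remaining 33.9% of the locus was in the gaps between them. *PLEKHN1*, which encodes a protein with a pleckstrin homology domain (chr21:2848494-2860131), had 100% of its length in cPGC domains and 46.4% in ESC domains, with 53.6% of the locus in gaps. *IFITM5*, a bone-associated member of the interferon-induced transmembrane family (chr5:1556071-1558140), was covered at 100% in both. It lay within an ESC domain, so the breaks of the ESC list fell outside this gene.

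Some spanning domains joined ESC domains across neighbouring genes. The domain of *PLEKHN1*, chr21:2832001-2871600 (39600 bp, 4 ESC domains, 46.2% filled), ended inside the next locus, *KLHL17*, which encodes a kelch-like protein. *KLHL17* (chr21:2863974-2878526) had 52.4% of its length in cPGC domains and 10.3% in ESC domains, with 40% in gaps. On chromosome 5, the domain of *IFITM5* (chr5:1553401-1568700, 15300 bp, 3 ESC domains, 72.5% filled) also took in 95.2% of *PGGHG*, an enzyme that removes glucose from collagen-linked sugars, and 40.8% of *IFITM1*. *PGGHG* had 95.2% of its length in cPGC domains and 78.5% in ESC domains. For *IFITM1*, whose family limits the entry of viruses in mammals, cPGC domains covered 40.8% and ESC domains 74.1%. There the cPGC domain began inside the locus while ESC domains covered most of it.

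Several loci were crossed in part. *LMX1A*, a LIM-homeobox factor of the developing nervous system, had 93.8% of its length in cPGC domains and 71.2% in ESC domains, with 26.4% of the locus in gaps of the spanning domain. *HSF5*, of the heat shock factor family and active in the male germ line of the mouse, had 81.9% of its length in cPGC domains and 62.6% in ESC domains, with 37.4% in gaps. *CDHR1*, a cadherin-related protein of photoreceptors, had 94.7% in cPGC domains and 79.1% in ESC domains. In *LMX1A* and *HSF5*, all bases that lay in a cPGC domain but in no ESC domain were in gaps of the spanning domain. *COL5A1*, a chain of fibrillar collagen V, lay in part over a spanning domain of 40500 bp with 5 ESC domains and had 89.1% of its length in cPGC domains and 76.8% in ESC domains. *MGAT5B*, a Golgi glycosyltransferase, had 85.0% of its length in cPGC domains and 49.1% in ESC domains, with 16.7% of the locus in gaps. In *TOX2*, an HMG-box protein, 2 spanning domains held 51.5% of the locus. *OPCML*, a cell adhesion molecule with a locus of 252742 bp, had 12.2% of it in a spanning domain, and *LRRC75A* had 97.5%. The remaining 3 loci carry no gene symbol, and 1 of them, described as ceramide synthase 4-like, had 30.2% of its length in gaps of a spanning domain of 14700 bp on chromosome 28.

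The 4 loci with higher ESC coverage were *IFITM1*, *MAP2K6*, *GALNT17* and *GnRH-I*. *MAP2K6*, a kinase that activates p38, had 33.4% of its length in cPGC domains and 37.2% in ESC domains. In *GALNT17*, a Golgi glycosyltransferase, cPGC domains covered 40.5% and ESC domains 77.4%, and the spanning domain held 17.1% of the locus. *GnRH-I*, the hypothalamic hormone that drives gonadotropin release, had 2.08% of its length in cPGC domains and 100% in ESC domains. The spanning domain beside it (28200 bp, 43.6% filled) reached into *DOCK5*, an exchange factor for Rac, which had 45.6% of its length in cPGC domains and 12% in ESC domains. Of the *DOCK5* locus, 31.3% lay in the spanning domain, with 3.36% in gaps between ESC domains and 15.9% beyond the outermost ESC domain. The difference between the cell types thus ran in opposite directions in the loci across the start and the end of this domain.

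By the words of their descriptions, 3 of 233 loci of membrane proteins (*IFITM1*, *IFITM5* and *CDHR1*) overlapped a spanning domain, as did 3 of 87 loci of nuclear factors (*HSF5*, *TWIST2* and *LMX1A*), 1 of 98 kinases (*MAP2K6*) and none of the 4 loci among the pluripotency, germinal, HOX and epigenetic modifier genes that the study listed. These counts stand beside 21 of 1999 over all loci (1.05%), and with so few loci no list can be set apart.

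**Figure D5:**
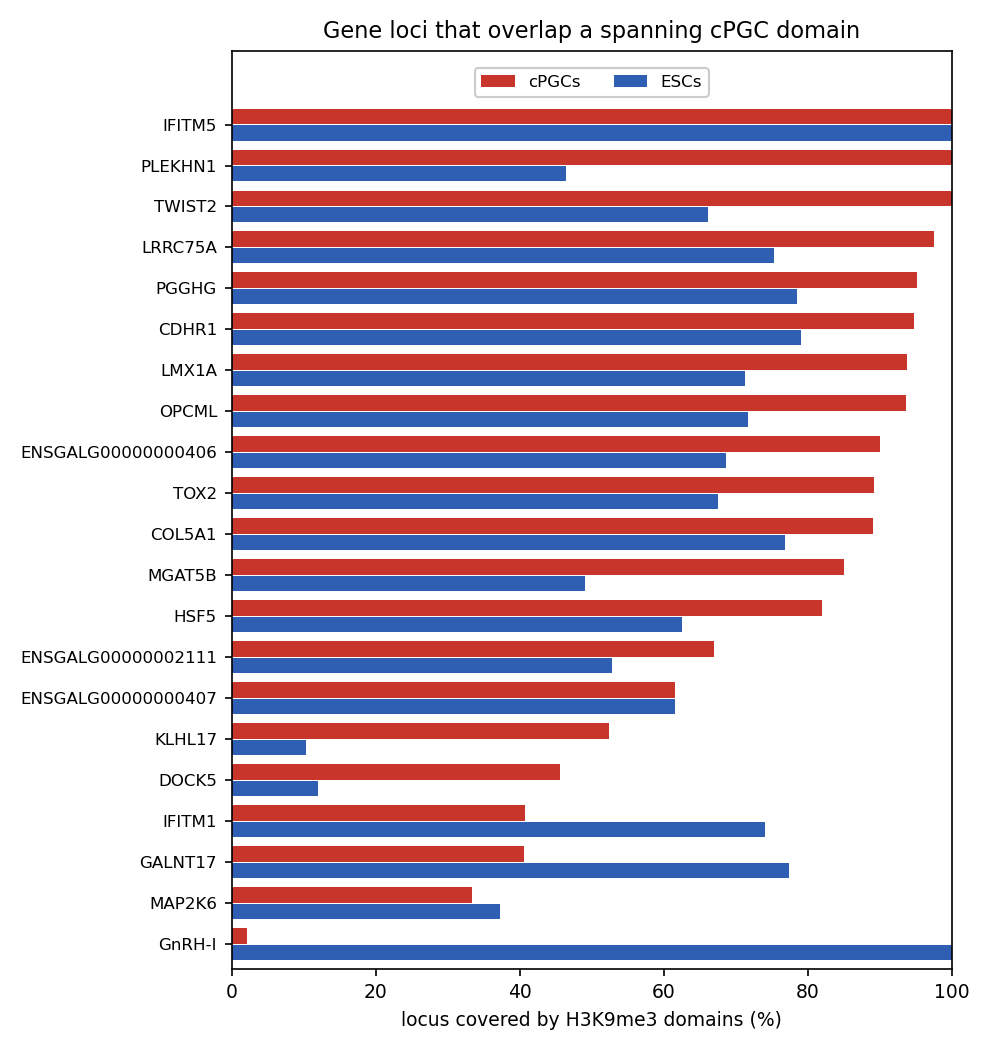
Share of each locus covered by H3K9me3 domains, in percent, in cPGCs (red, upper bar) and ESCs (blue, lower bar) for the 21 loci that overlap a spanning cPGC domain, ordered by cPGC coverage. The cPGC bar is longer in 15 loci, the ESC bar is longer in 4 and they are equal in 2.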

How the data were processed

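H3K9me3 ChIP-seq and input libraries of cPGCs and ESCs (1 of each kind per cell type) were processed by the authors. They aligned paired reads to galGal5 with Bowtie 2, kept proper pairs with a mapping quality of at least 30, called MACS2 broad peaks and SICER islands (window 300 bp, gap 1500 bp) against input, and kept autosomal islands of very low false-discovery rate or with a broad peak. The deposited values are base positions, with start and end counted from 0, and 1 was added to both for printing. Intervals cover counting error over domains, gaps or ends only, which are not independent.

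Overlaps, gaps, shares and shifts came from scripts in Python 3.11.15, with scipy 1.17.1 for intervals, pandas 2.3.3 for tables, numpy 2.4.6 for positions and matplotlib 3.10.9 for plots. Shares have 95% Wilson intervals and medians binomial order-statistic intervals. The interval of a ratio to the shifts covers counting of the observed number only. Each chromosome was taken to end with its last cPGC or ESC domain (932264700 bp on 30 chromosomes). The routines were tested on simulated lists, and 8 of 8 checks returned the simulated answer. The domains, lists and shifts were chosen with earlier results of these data known.

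The rule for named regions takes the 5 with the most ESC domains, 3 each at the largest and smallest share filled, longest gap, narrowest and widest, and a domain nearest the median width. Other domains tied with those named at the largest and at the median width. For genes it takes up to 12 named loci lying wholly inside and the 6 with the largest cPGC minus ESC coverage among those that overlapped. Other loci in the text were named after their values were seen. Only part of the locus table was used, for names and positions. Gene symbols were looked up in the RefSeq table of GRCg7b (15 of 18 found), whose coordinates were not used, and no galGal5 sequence was used here. The alternatives joined close domains, kept domains of at least 3000 bp, required 50% of a domain inside, changed the width or number in the rule, split chromosomes 1 to 8 from the others, and used other shifts.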

Additional observations from a re-analysis of the deposited data

How the results depend on the processing

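No paired analysis was possible because each cell type has 1 library of each kind, and no replicate could be left out. The number of spanning cPGC domains, 548, became 81 with domains 3000 bp or less apart joined in both lists, 111 with ESC domains alone joined, 334 when at least 50% of an ESC domain had to lie inside, 194 below 30000 bp, 1036 without an upper width, 2599 over 2 or more, 107 over 4 or more and 96 outside chromosomes 1 to 8. Its ratio to the shifts, 1.48, was reversed to 0.818 with both lists joined and was 1.13 with ESC domains alone joined, 1.22 below 30000 bp, 1.28 over 2 or more, 1.30 over local shifts, 1.61 with domains of at least 3000 bp, 1.71 over 4 or more, 2.03 with 50% inside and 2.06 outside chromosomes 1 to 8. The 204 ESC domains over 3 or more cPGC domains became 35 with both lists joined, 321 with ESC alone joined, 16 with cPGC alone joined, 80 with 50% inside, 128 below 30000 bp, 1920 over 2 or more, 27 over 4 or more and 28 outside chromosomes 1 to 8. The median share filled, 61.9%, was 47.2% with both lists joined, 52.1% with ESC and 57.7% with cPGC domains joined, 66.2% with domains of at least 3000 bp and 65.9% outside chromosomes 1 to 8. The median inside gap, 2700 bp, was 6600 bp with both lists joined, 6000 bp with ESC joined and 3000 bp without an upper width. Joining removes the gaps of 3000 bp or less by construction, and the cause of the other changes was not tested. The bridged share of short ESC gaps, 47.4%, was 54.4% for 1800 to below 3000 bp, 36.5% for 3000 to below 6000 bp, 48.5% on chromosomes 1 to 8, 43.4% on the others, 50.2% with domains of at least 3000 bp and 19.9% with the cell types exchanged. The 21 loci were 20 and 17 under their alternatives. Joining in a single list, local shifts and the exchange of cell types for bridged gaps were added after seeing the data. The limits are the unknown depth, the 300 bp grid and the smallest gap of 1800 bp, near which many inside gaps lie.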
